A study of Mus musculus with 12 samples.

Results

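TRAV1, TRAV11, TRAJ18 and TRAJ33 are gene segments of the mouse T cell receptor alpha chain locus on chromosome 14 that are best known from innate-like T cells. Their use was followed in receptor transcripts of CD8+ T cells sorted with an Rpl18 tetramer, a reagent that carries a mutated peptide of the ribosomal protein Rpl18. A rearrangement was taken as a member if its V segment was TRAV1 or TRAV11, with duplicated copies and alleles pooled, or if its J segment was TRAJ18 or TRAJ33. Of 10521 TRA rows over 12 libraries, 583 met this rule (5.54%), and they held 37517 of 731688 TRA reads. TRAV1 had 230 rows, TRAV11 22, TRAJ18 213 and TRAJ33 121.

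The cells were sorted on day 10 after injection of MC38, a mouse colon carcinoma line. There were 4 groups of 3 libraries: KO tumor (1, 2, 3), WT tumor (2, 3, 4), KO tumor-draining lymph node or TDLN (1, 2, 3) and WT TDLN (1, 3, 4). KO mice carried a CD8-specific knockout of TrIP, a membrane protein that restrains PI3 kinase signalling in T cells, and WT mice did not. The labels used here give neither the driver of the knockout nor the age of the mice, and all groups received the same tumor cells.

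An alpha chain is made by joining 1 V to 1 J segment, and the junction forms the third complementarity-determining region (CDR3), the loop that contacts antigen most directly. In invariant natural killer T (NKT) cells TRAV11 is joined to TRAJ18, and the receptor recognises lipids on the MHC-like molecule CD1d. In mucosal-associated invariant T (MAIT) cells TRAV1 is joined to TRAJ33, and the receptor recognises vitamin B metabolites on MR1. The same segments also join other partners in conventional T cells, which recognise peptides on classical MHC molecules. A productive rearrangement keeps the reading frame across the junction and contains no stop codon.

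The CDR3 sequences that carried most of the member reads are shown first. The first set holds large TRAV1 and TRAV11 rearrangements, with capitals marking the longest stretch from the 5′ end that a rearrangement of the same V segment to another J segment shared.
TRAV1-TRAJ28: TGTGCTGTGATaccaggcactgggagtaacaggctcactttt
TRAV1-TRAJ4: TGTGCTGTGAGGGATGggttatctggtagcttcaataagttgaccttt
TRAV1-TRAJ17, in frame: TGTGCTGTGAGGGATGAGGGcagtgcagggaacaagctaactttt
TRAV1-TRAJ21, out of frame: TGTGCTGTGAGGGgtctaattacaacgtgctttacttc
TRAV1-TRAJ17, out of frame: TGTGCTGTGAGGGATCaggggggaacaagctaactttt
TRAV11-TRAJ27, first form: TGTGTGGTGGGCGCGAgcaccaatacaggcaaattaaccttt
TRAV11-TRAJ27, second form: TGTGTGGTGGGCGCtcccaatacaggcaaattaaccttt

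The second set holds the TRAJ33 clonotypes that reached 1% of a library, the 3 productive TRAJ18 clonotypes with the highest shares and the only TRAV11-TRAJ18 rearrangement above 1 read. Here capitals mark the longest stretch up to the 3′ end that a rearrangement of the same J segment to another V segment shared.
TRAV16-TRAJ18, first form: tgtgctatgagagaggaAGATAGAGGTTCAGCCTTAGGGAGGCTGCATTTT
TRAV16-TRAJ18, second form: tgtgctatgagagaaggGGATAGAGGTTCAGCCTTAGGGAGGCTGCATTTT
TRAV6-4-TRAJ18: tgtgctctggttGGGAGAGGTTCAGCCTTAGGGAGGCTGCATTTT
TRAV11-TRAJ18, out of frame: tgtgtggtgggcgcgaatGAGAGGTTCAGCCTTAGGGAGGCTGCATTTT
TRAV14-2-TRAJ33: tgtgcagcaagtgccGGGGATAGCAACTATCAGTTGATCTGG
TRAV6-6-TRAJ33, first form: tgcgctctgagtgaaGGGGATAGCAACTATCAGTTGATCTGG
TRAV6-6-TRAJ33, second form: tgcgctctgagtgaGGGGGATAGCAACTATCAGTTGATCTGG

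The capitals mark the shared stretches only, and the small letters also hold bases of the partner segment. In the first TRAV16-TRAJ18 form, 34 of 51 bases at the 3′ end also occurred behind another V segment. In the TRAV1-TRAJ28 sequence only the first 11 of 42 bases did so in front of another J segment. The 2 TRAV6-6-TRAJ33 forms differ by A15G, counted from 1 at the 5′ end of the CDR3, and encode the same amino acids. The 2 TRAV16-TRAJ18 forms differ by G15A, A17G and A18G.

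A clonotype here is a CDR3 given by its bases, its V segment (copies pooled) and its J segment, and a share is a percent of productive TRA reads. Per library, there were between 15832 (WT TDLN 4) and 94874 (WT tumor 2) productive TRA reads, and the median was 48823.5. A count of 0 therefore allows a share of up to 0.00316% to 0.0189%, taking 3 reads as the limit. No molecular identifiers were described, so reads are not molecules, and intervals and limits cover counting error only. In bulk libraries fewer cells of a clone and less RNA per cell cannot be told apart. The run log of the deposited workbook notes 4 of the 6 TDLN libraries as timed out (KO TDLN 1, KO TDLN 2, WT TDLN 1 and WT TDLN 3), and the part this plays in a difference between tumor and TDLN was not tested. The labelled cell type was not checked, since only receptor transcripts were measured.

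Libraries shared clonotypes of these segments. Each of 6 letters in the library names is shared by 1 TDLN and 1 tumor library. Of 352 different productive member clonotypes, 29 occurred under 2 or more letters, and these held 89.2% of the productive member reads. Of 6245 clonotypes with none of the 4 segments, 485 did, with 78.9% of their reads. Whether reads passed between libraries was not tested, and this bears on shared counts of any size. The TRAV1-TRAJ28 clone printed above had 231 reads in KO tumor 1 and 6823 in WT tumor 4, with 4 in KO TDLN 2 and 649 in WT TDLN 1. The first TRAV16-TRAJ18 form had 3 reads in KO tumor 2 and 5481 in WT tumor 2, with 1264 in KO TDLN 1 and 4 in KO TDLN 3. Both sequences were thus found under 4 letters and in both genotypes. The tests below treat libraries as independent, and the summed read shares are given with and without the shared clonotypes.

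Neither invariant pair was found in a productive form. No row joined TRAV1 to TRAJ33, the MAIT pair, in any of the 12 libraries. TRAV11 was joined to TRAJ18, the NKT pair, in 3 rows of WT TDLN 3 with 17 reads in all, and each was out of frame. The largest of them had 15 reads, and its CDR3 of 49 bases leaves 1 base beyond whole codons. All 583 rows therefore used the 4 segments outside a productive NKT or MAIT chain, and the limit on a productive chain over all 625661 productive reads was 0.000479%.

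TRAV1 was joined to 10 TRAJ segments, 8 of them in productive form. TRAJ28 held 54.6% and TRAJ4 42.9% of its 14350 productive reads. TRAJ28 held 24 and TRAJ4 20 of 64 clonotypes, counted after variants 1 base away from a clonotype at least 100 times larger were merged. TRAJ28 made up 37.5% of the TRAV1 clonotypes, against 0.491% of the clonotypes with none of the 4 segments. TRAJ4 made up 31.3% of the TRAV1 clonotypes, against 0.982% of those others. TRAJ17, TRAJ15 and TRAJ26 followed with 5 clonotypes each. Variants of 1 clone can remain after merging and count as clonotypes, here and for the segments below. Before merging, 9 different TRAV1 clonotypes had 10 reads or more in a library, and variants of 1 clone can be among these. No test was made on these shares.

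TRAV11 was the rarest of the 4 segments, with 330 productive reads. Its productive partners were TRAJ27, with 254 reads in 3 libraries, and TRAJ32, with 76 reads in 2 libraries. TRAJ11, TRAJ18, TRAJ26 and TRAJ38 were joined to TRAV11 only in unproductive rows, which had 39, 17, 34 and 44 reads in that order. After merging, TRAV11 had 8 different clonotypes.

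TRAJ18 was joined to 11 V segments, 6 of them in productive form. TRAV16 held 96.8% of the 7458 productive TRAJ18 reads and 62.7% of its clonotypes, against 19.7% of the clonotypes with none of the 4 segments. TRAV6-4 and TRAV3-3 had 12 clonotypes each, with 97 and 77 reads, and each was found in 1 library. A single sequence held 81 of the 97 TRAV6-4 reads. TRAV7-2 had 5 clonotypes with 58 reads and TRAV6-7 had 1 clonotype with 3 reads, each also in 1 library. Remaining variants of 1 clone are counted here too. Before merging, 9 different TRAJ18 clonotypes had 10 reads or more in a library, and variants of 1 clone can be among these.

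TRAJ33 had the broadest set of partners, 19 V segments, all of them productive. TRAV6-6 held 35.7% of its 4958 productive reads, TRAV14-2 21.3% and TRAV4-3 14.6%. TRAV6-6 had 15 clonotypes in 5 libraries, TRAV4-3 10 in 3 libraries, TRAV16 10 in 4 libraries and TRAV19 7 in 1 library. TRAV6-6 made up 19.5% of the TRAJ33 clonotypes, against 4.04% of the clonotypes with none of the 4 segments. TRAV16 held 10 of the 77 TRAJ33 clonotypes. The plot of partners sets the narrow lists of TRAV1, TRAV11 and TRAJ18 beside the long list of TRAJ33.

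**Figure D1:**
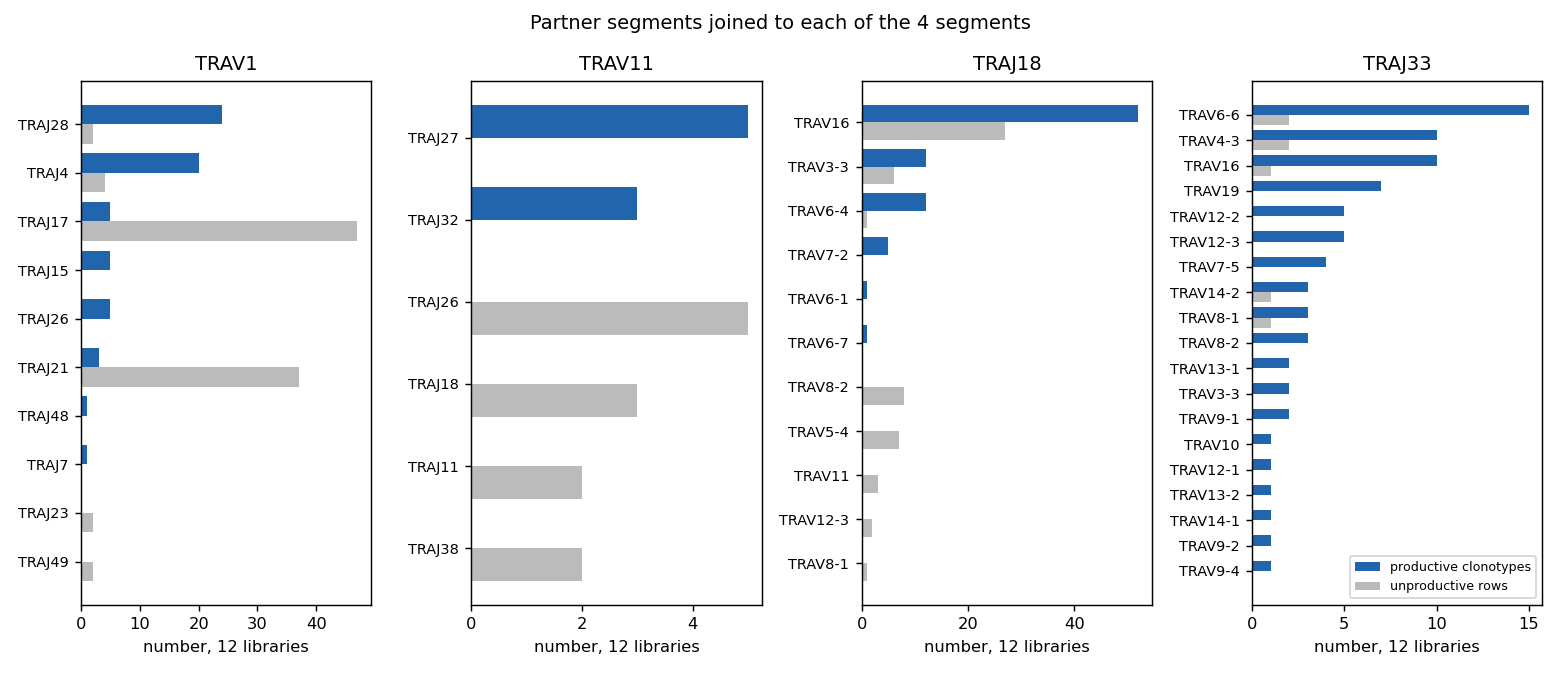
Number of productive clonotypes (blue, summed over the 12 libraries after merging 1-base variants) and of unproductive rows (grey) for each partner of TRAV1, TRAV11, TRAJ18 and TRAJ33. TRAJ33 was joined to 19 V segments, while 52 TRAJ18 clonotypes used TRAV16 and the TRAV1 rows with TRAJ17 and TRAJ21 were mostly unproductive.

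Levels of the segments differed widely between libraries of 1 group. The TRAV1 share was 1.03%, 0 and 7.58% in KO tumor 1, 2 and 3. It was 0.00105%, 0.0106% and 10.0% in WT tumor 2, 3 and 4. It was 0, 0.00633% and 0 in KO TDLN 1, 2 and 3, and 1.00%, 5.36% and 0.152% in WT TDLN 1, 3 and 4. The 3 high libraries were KO tumor 3, WT tumor 4 and WT TDLN 3. All 3 KO TDLN libraries lay below all 3 WT TDLN libraries, a separation that 3 of 47 TRAV segments showed in that direction (6.38%), while the tumor groups overlapped. Out-of-frame TRAV1 reads, which the share leaves out, numbered 61 in KO TDLN 1 and 2094 in KO TDLN 3, and the largest are described with the unproductive rows.

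The TRAV11 share was 0, 0 and 0.252% in KO tumor 1, 2 and 3, and 0 in all 3 WT tumor libraries. It was 0.225%, 0 and 0.0972% in KO TDLN 1, 2 and 3, and 0, 0.0825% and 0.227% in WT TDLN 1, 3 and 4. A single tumor library and 4 of 6 TDLN libraries thus had productive TRAV11 reads, and none of them exceeded 124 reads.

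The TRAJ18 share was 0, 0.00946% and 0 in KO tumor 1, 2 and 3, and 6.06%, 0 and 0 in WT tumor 2, 3 and 4. It was 3.24%, 0 and 0.586% in KO TDLN 1, 2 and 3, and 0.0705%, 0.208% and 0 in WT TDLN 1, 3 and 4. WT tumor 2 and KO TDLN 1, which share the first TRAV16-TRAJ18 form, were the high libraries, and all groups overlapped.

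The TRAJ33 share was 0, 1.69% and 1.80% in KO tumor 1, 2 and 3, and 0, 0.00177% and 0.132% in WT tumor 2, 3 and 4. It was 0.655%, 2.25% and 1.24% in KO TDLN 1, 2 and 3, and 0.809%, 0.607% and 0.777% in WT TDLN 1, 3 and 4. TRAJ33 was the only one of the 4 with productive reads in every TDLN library. All 3 WT tumor libraries lay below all 3 WT TDLN libraries, as 10 of 43 TRAJ segments did (23.3%), while the KO groups overlapped.

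**Figure D2:**
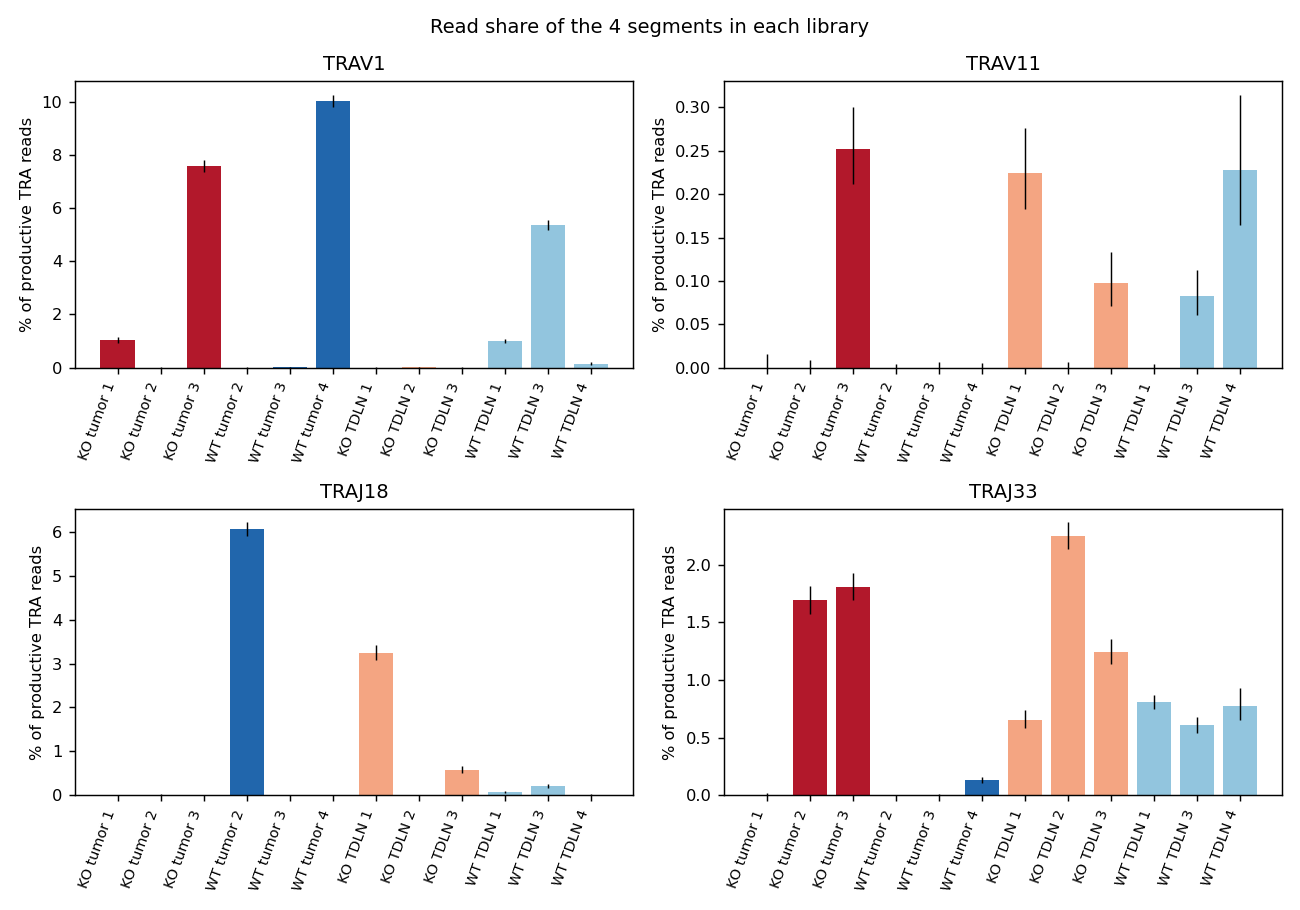
Percent of productive TRA reads with TRAV1, TRAV11, TRAJ18 or TRAJ33 in each of the 12 libraries, with 95% Wilson intervals that cover counting error only; each panel has its own axis. TRAV1 reached 10.0% in WT tumor 4 and TRAJ18 6.06% in WT tumor 2, while TRAJ33 was present in all 6 TDLN libraries.

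Averaged over all 12 libraries, TRAV1 made up 2.10% ± 3.52 of productive reads (SD, n = 12), rank 11 of 47 TRAV segments. TRAV11 made up 0.0737% ± 0.103 (rank 36 of 47), and TRAJ18 0.848% ± 1.88 and TRAJ33 0.830% ± 0.769 (ranks 22 and 23 of 43 TRAJ segments). TRAJ18 and TRAJ33 did not differ beyond their spread. The segments most alike to TRAV1 in rank over the 12 libraries were TRAV9-4 (Spearman rho 0.79) and TRAV6-5 (0.58). For TRAV11 they were TRAV5-4 (0.80) and TRAV12-1 (0.65), for TRAJ18 TRAJ11 (0.62) and TRAJ50 (0.61), and for TRAJ33 TRAJ15 (0.75) and TRAJ48 (0.71). These coefficients describe 12 libraries that share clonotypes, and a segment at 0 in several libraries has tied ranks there.

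Tumor was set against TDLN to ask whether these segments differ between tumor-infiltrating and node cells of the same tetramer binding. With edgeR's quasi-likelihood test on segment reads, 0 of the 4 segments passed an adjusted p of 0.05, against 12 of 47 TRAV segments (25.5%) and 8 of 43 TRAJ segments (18.6%), all of them lower in tumor. At an unadjusted p under 0.05, 16 TRAV and 14 TRAJ segments passed, TRAV1 and TRAV11 among them. In that edgeR fit TRAV1 was higher in tumor, unlike the segments called (log2 fold change 5.41, adjusted p 0.111). Its means were 2.87% ± 4.11 in KO tumor, 3.35% ± 5.79 in WT tumor, 0.00211% ± 0.00366 in KO nodes and 2.17% ± 2.80 in WT nodes (SD, n = 3 each). TRAV11 (log2 fold change −4.55), TRAJ18 (−2.05) and TRAJ33 (−2.14) were lower in tumor. TRAV11 had an adjusted p of 0.0876, TRAJ18 0.698 and TRAJ33 0.698 in edgeR. DESeq2 called 18 of the 58 segments to which it gave an adjusted p in this comparison, TRAV1 among them. Without WT tumor 2, which held 5747 of the productive TRAJ18 reads of tumor, edgeR called 11 of 90 segments, TRAJ18 among them (adjusted p 0.0328). Without KO tumor 3, the only tumor library with productive TRAV11 reads, it called 22 of 90, TRAV11 among them (adjusted p 0.0410).

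The 4 segments together made up 4.77% ± 4.48 of productive reads in tumor and 2.93% ± 1.91 in TDLN libraries (SD, n = 6 each). The difference was 1.83 percentage points (exact two-sided permutation within genotype, p = 0.43, adjusted p = 1 over 8 tests), with 2 of 6 tumor libraries above all TDLN libraries of their genotype. Without the clonotypes found under several letters it was 1.98 (exact permutation p = 0.385). Counted by clonotypes, whatever their size, the 4 segments made up 5.70% ± 5.02 in tumor and 5.03% ± 2.39 in TDLN libraries (exact permutation p = 0.815, adjusted p = 1). That difference of 0.670 points turned to −1.26 once 1-base variants were merged.

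KO was set against WT to ask whether loss of TrIP in CD8+ cells goes with another use of these segments. No segment of either kind passed edgeR's test in TDLN or in tumor (0 of 47 and 0 of 43, 0%), the 4 members included. In TDLN, 1 TRAV segment, TRAV1, and 1 TRAJ segment had an unadjusted p under 0.05, and in tumor 11 TRAV and 10 TRAJ segments did, TRAV11 and TRAJ18 among them. The lowest adjusted p of a member in edgeR was 0.917 in TDLN, for TRAV1, and 0.154 in tumor, for TRAV11, which had productive reads in 1 KO tumor library and in no WT tumor library. DESeq2 called TRAV1 in TDLN, the only one of 58 segments with an adjusted p, where KO libraries averaged 0.00211% and WT libraries 2.17%. In tumor TRAJ33 averaged 1.16% ± 1.01 in KO and 0.0446% ± 0.0757 in WT libraries, and KO tumor 1 with no TRAJ33 read made the groups overlap (edgeR adjusted p = 0.509). TRAJ18 averaged 0.00315% ± 0.00546 in KO tumor and 2.02% ± 3.50 in WT tumor, with all the WT tumor reads in WT tumor 2 (edgeR adjusted p = 0.188).

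Together, the segments made up 2.77% ± 1.19 in KO TDLN and 3.10% ± 2.76 in WT TDLN (difference −0.333 points, exact permutation p = 1). Without the clonotypes found under several letters that difference was 1.46 points (exact permutation p = 0.5). They made up 4.12% ± 4.78 in KO tumor and 5.41% ± 5.11 in WT tumor (difference −1.29 points, exact permutation p = 0.9), and without those clonotypes the difference was −3.60 points (exact permutation p = 0.3). By clonotypes the shares were 4.90% ± 2.74 in KO TDLN and 5.16% ± 2.58 in WT TDLN (exact permutation p = 1). In tumor they were 3.49% ± 1.03 in KO and 7.91% ± 6.88 in WT (exact permutation p = 0.4). All adjusted values were 1, and 3 libraries against 3 cannot give a p under 0.1. A different tumor-to-TDLN change in KO and WT was tested as an interaction in edgeR, and no member passed (adjusted p from 0.215 for TRAV11 to 0.680 for TRAJ33).

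Few clones carried the reads. Of 388 productive member clonotypes, counted per library, 264 (68.0%) were single reads, and 6 with 1000 reads or more held 76.5% of the member reads. Among clonotypes with none of the 4 segments, 65.8% were single reads and those of 1000 reads or more held 81.3%. The profile of sizes was thus close to that of the other clonotypes, with no test made. At 1% or more of a library there were 8 entries of 6 different clonotypes in 7 libraries, which held 80.2% of the member reads.

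Productive TRAV1 reads lay mostly in 2 chains. The TRAV1-TRAJ28 clone made up 0.977% of KO tumor 1 and 9.90% of WT tumor 4 (95% Wilson interval 9.68% to 10.1%), with 0.00633% of KO TDLN 2 and 0.788% of WT TDLN 1. The TRAV1-TRAJ4 clone made up 7.55% of KO tumor 3 (7.32% to 7.78%), 0.00531% of WT tumor 3 and 4.94% of WT TDLN 3 (4.75% to 5.14%). The 3 largest entries held 90.1% of the productive TRAV1 reads.

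Among TRAV11 clonotypes the first TRAV11-TRAJ27 form had 122 reads in KO tumor 3 (0.248%) and the second TRAV11-TRAJ27 form had 79 reads in KO TDLN 1 (0.195%). Each was found in 1 library. None of the 10 TRAV11 clonotypes had more than 122 reads.

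TRAJ18 reads lay mostly in the first TRAV16-TRAJ18 form, which made up 5.78% of WT tumor 2 (95% Wilson interval 5.63% to 5.93%) and 3.12% of KO TDLN 1 (2.96% to 3.30%). The next productive ones by share of their library were the second TRAV16-TRAJ18 form with 115 reads in KO TDLN 3 (0.287%) and the TRAV6-4-TRAJ18 sequence with 81 reads in WT TDLN 3 (0.167%). The largest entry held 73.5% of the TRAJ18 reads.

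TRAJ33 reads were spread more evenly, and its largest entry held 21.2% of them. The TRAV14-2-TRAJ33 clone made up 1.67% of KO TDLN 2 (95% Wilson interval 1.57% to 1.77%), with 1 read in WT tumor 4. Both TRAV6-6-TRAJ33 forms were in the same KO tumor libraries. The first form made up 0.636% of KO tumor 2 and 1.17% of KO tumor 3, and the second 1.03% of KO tumor 2 and 0.620% of KO tumor 3. Their order was thus opposite in the 2 libraries, and outside KO tumor the second form had 1 read, in WT tumor 3. A TRAV4-3-TRAJ33 clonotype had 493 reads in WT TDLN 1 and 107 in WT TDLN 4 and was named after its values were seen. Before merging, 28 different TRAJ33 clonotypes had 10 reads or more in a library, against 9 of TRAV1, 9 of TRAJ18 and 6 of TRAV11. Variants of 1 clone can be among them, so these are not counts of separate clones. The TRAJ18 count includes TRAV16-TRAJ18 sequences of 5481, 101 and 12 reads in WT tumor 2 that encode the same amino acids.

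**Figure D3:**
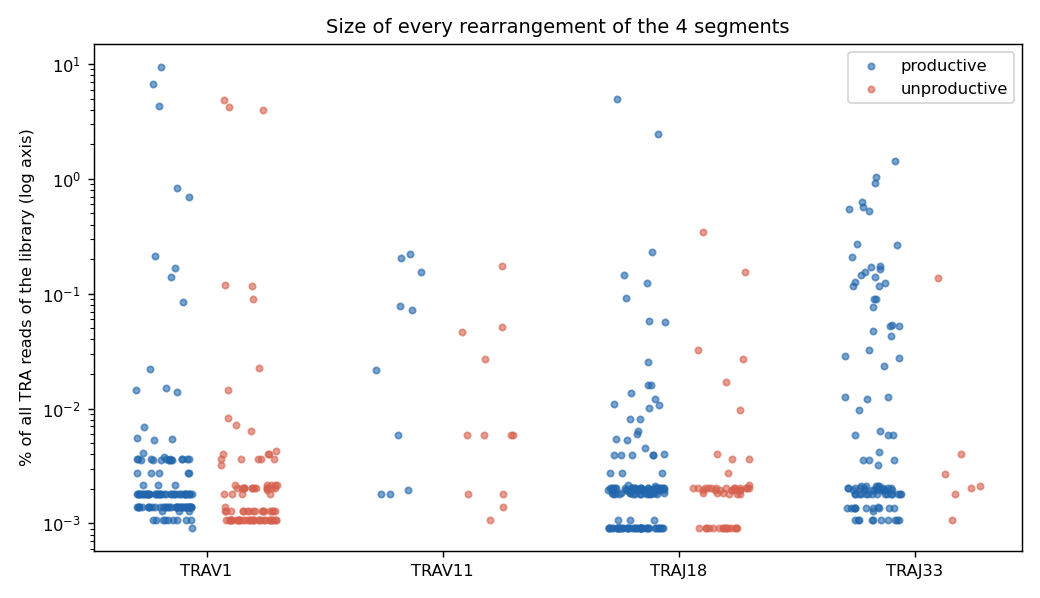
Every rearrangement of the 4 segments as a percent of all TRA reads of its library (log axis), 1 point per library and sequence, productive in blue and unproductive in red. Few points of TRAV1 and TRAJ18 lie above 1%, and 3 of the TRAV1 points there are unproductive.

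Some TRAV1 rearrangements were abundant although out of frame. The TRAV1-TRAJ21 sequence of 38 bases had 8 reads in KO tumor 3, 1 in KO tumor 1 and 3780 in WT tumor 3 (4.82% of all TRA reads), with 2075 in KO TDLN 3 (4.19%). The TRAV1-TRAJ17 sequence, also of 38 bases, had 33 reads in KO tumor 1, 6 in WT tumor 4 and 3698 in WT TDLN 1 (3.97%). Each leaves 2 bases beyond whole codons. WT tumor 3 and KO TDLN 3 had 6 and 0 productive TRAV1 reads, so nearly all their TRAV1 reads were of a chain that encodes no receptor.

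Of TRAV1 rows 40.9% were unproductive, of the 22 TRAV11 rows 54.5%, of TRAJ18 rows 25.8% and of TRAJ33 rows 5.79%. Other rows, with TRAJ7 left out because its frame was read apart, had 24.9%. Variants of 1 sequence count as separate rows here. Of the 94 unproductive TRAV1 rows, 47 had TRAJ17 and 37 had TRAJ21. Over libraries, 28.6% ± 22.9 of member rows and 25.0% ± 6.69 of other rows were unproductive (SD, n = 12 each). The difference of 3.53 points was within the spread (exact sign-flip permutation p = 0.582, adjusted p = 1), and it was positive in 5 of 12 libraries. By reads, WT tumor 3 had 99.8%, KO TDLN 3 74.9% and WT TDLN 1 71.7% of its member reads unproductive, and these were the libraries of the 3 sequences above. In the other 9 libraries this share was 0.114% to 15.7%.

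**Figure D4:**
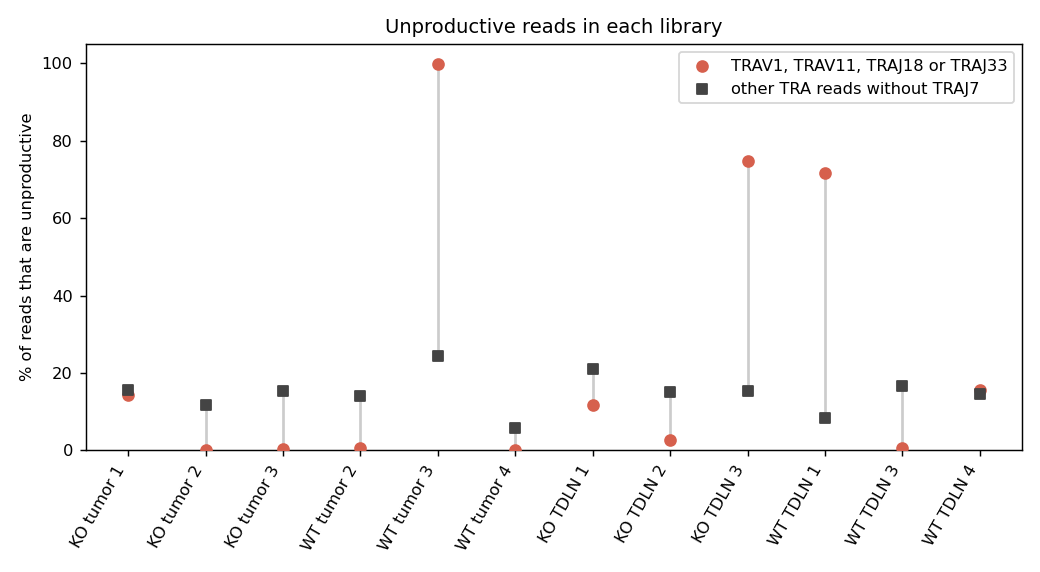
Percent of reads that were unproductive in each of the 12 libraries, for member reads (red circles) and for other TRA reads without TRAJ7 (dark squares), with a line joining the pair. Members lie far above the others in WT tumor 3, KO TDLN 3 and WT TDLN 1.

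CDR3 length differed between the segments. Over different productive clonotypes after merging, TRAJ18 chains averaged 16.0 ± 1.29 amino acids (SD over 78 clonotypes) and TRAJ33 chains 12.96 ± 1.38 (71 clonotypes). TRAV1 chains averaged 14.2 ± 1.58 (58 clonotypes) and TRAV11 chains 13.5 ± 0.756 (8 clonotypes), against 14.5 ± 1.80 for 3222 clonotypes with none of the 4 segments. Of TRAJ18 chains, 47 had 17 residues and none had 16. Of TRAJ33 chains, 30 had 14 residues. Of TRAV1 chains, 21 had 14 and 17 had 16, the lengths of the TRAV1-TRAJ28 and TRAV1-TRAJ4 clones. Variants of 1 clone can remain after merging, so clonotypes are not independent draws.

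For the 4 segments as 1 set no difference in length was found. Per library, member clonotypes averaged 14.4 ± 1.14 and other clonotypes 14.6 ± 0.294 amino acids (SD, n = 12 each). The difference was −0.208 (exact sign-flip permutation p = 0.5625, adjusted p = 1), and members were longer in 5 of 12 libraries. It ranged from −1.82 in WT TDLN 1 to 2.22 in WT tumor 2, the library with the highest TRAJ18 share.

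The content of the loops also varied. It was counted over the same merged clonotypes, 58 of TRAV1, 8 of TRAV11, 78 of TRAJ18 and 71 of TRAJ33. Remaining variants of 1 clone count separately, so the percents do not rest on independent chains. An acidic residue was present in 87.3% of TRAJ33, 67.9% of TRAJ18, 39.7% of TRAV1 and 12.5% of TRAV11 clonotypes, against 70.05% of the other clonotypes. A basic residue was present in 100% of TRAJ18 and 32.4% of TRAJ33 clonotypes, against 86.6% of the others. An aromatic residue was present in 97.2% of TRAJ33, 7.69% of TRAJ18 and 36.2% of TRAV1 clonotypes, against 48.3% of the others. The outermost residues at the ends of the loop were left out of these counts, so they do not describe the whole CDR3. The closing F of the TRAJ18 ending LGRLHF, present in 71.8% of TRAJ18 clonotypes, was thus not counted as aromatic. Residues further in that come from the V and J segments are part of these counts. The median stretch shared with another partner was 32.5 bases at the 3′ end for TRAJ18 and 26 for TRAJ33, and 11 bases at the 5′ end for TRAV1 and 13 for TRAV11.

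**Figure D5:**
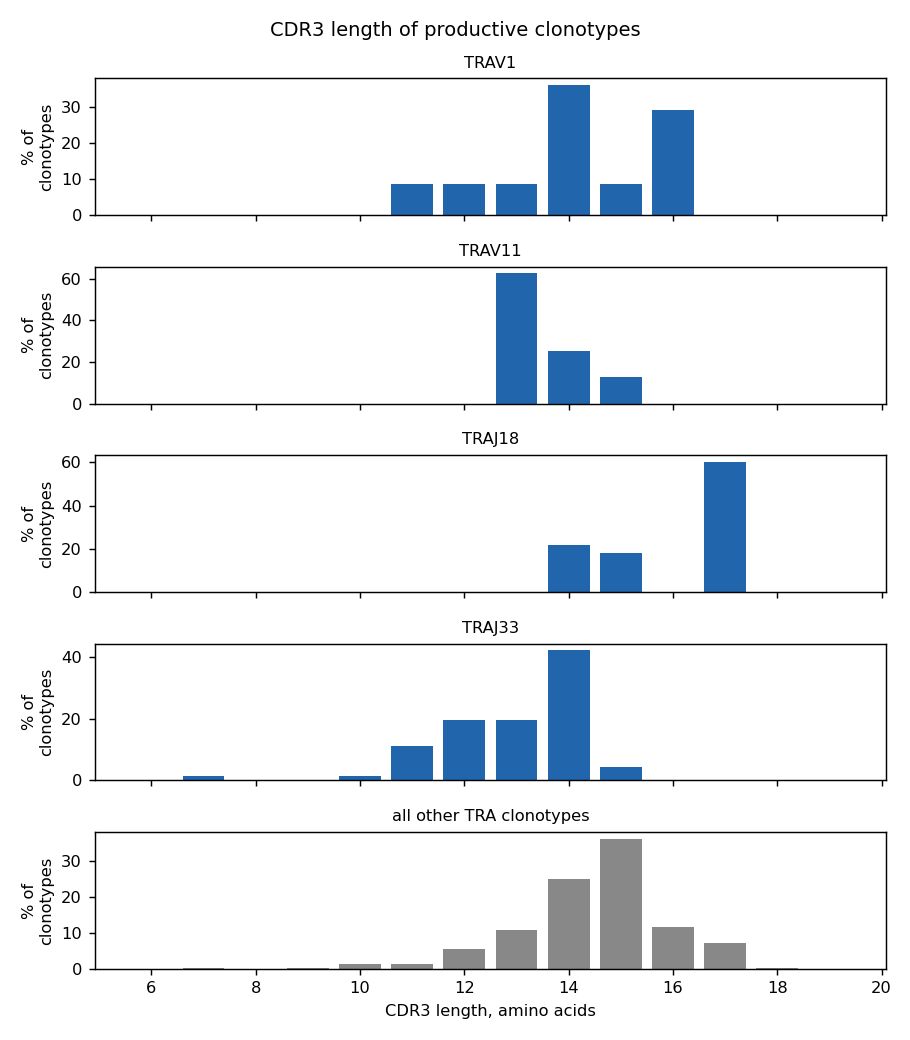
Distribution of CDR3 length in amino acids over different productive clonotypes after merging, as a percent of the clonotypes of each segment; other clonotypes longer than 22 residues are not drawn. TRAJ18 chains peak at 17 residues and TRAJ33 chains at 14, with the other TRA clonotypes between them at 15.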

How the data were processed

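TCR transcripts were sequenced from polyA RNA with TCR-specific primers, per the labels' protocols. GRCm39 is the genome build in the submitters' processing notes. The rows have the columns of a TRUST4 report, per the file headers, with no version given. Each deposited row holds a count of reads of 1 TRA rearrangement in 1 library. The authors' deposited fraction of the library's TRA total was recomputed from counts for productive rows. Segments are named by RefSeq symbols, and no coordinates are given because the table of genes used here is of another build.

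Unproductive rows were those with a frame shift, a stop codon or a base that was not read. TRAJ7 rows 1 base short of whole codons were read as in frame, a choice made after the values were seen. The tables number WT tumor 2 as 1, and its library name was used to match it. Replicates are separate samples per the labels, and whether they are separate mice is not stated, so p-values measure only the spread between these samples.

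Segment reads were tested in R 4.3.3 with the quasi-likelihood test of edgeR 4.0.16, TRAV and TRAJ apart, with 4 groups in 1 fit, the productive total as scale and p-values adjusted by Benjamini-Hochberg over all segments. Kept were segments with at least 10 reads and 0.1% of some library, and all 4 members passed, TRAV11 through the few libraries where it is high. Single values had exact two-sided permutation tests: 400 assignments within genotype (smallest p 0.005), 20 for 3 against 3 (smallest p 0.1) and 4096 sign flips over libraries. The 8 tests were adjusted together. The methods were tested on simulated data. Alternatives were all rows, merged variants, no single reads, no shared clonotypes, the deposited TRAJ7 frame, DESeq2 1.42.0, TMM factors, no filter, each library left out, and a block by number.

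Named were the 4 segments in every library, both invariant pairs, the 5 partners of each with most clonotypes, clonotypes of at least 1% of a library or else the 3 largest of a segment, and the 2 most alike segments. Of the clonotypes this rule names, 1 is not reported here. The members and lists were chosen with earlier results of these data known.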

Additional observations from a re-analysis of the deposited data

Results flagged for a closer look

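Signals outside the productive reads were as follows. The NKT pair TRAV11-TRAJ18 had 17 reads in WT TDLN 3, all out of frame and above the limit of 3 reads that a count of 0 allows. Out-of-frame TRAV1-TRAJ21 had 3780 reads in WT tumor 3 and 2075 in KO TDLN 3. Out-of-frame TRAV1-TRAJ17 had 3698 reads in WT TDLN 1. A further deposited table of all chains, which covers 8 of the 12 libraries and was used only here, lists 333 TRAJ18 reads in KO tumor 1, where the main table has 1. The J names of the tables disagree elsewhere too, since that table names no TRAJ18 read in WT tumor 2, where the main table has 5775. None of these 333 reads ends in the 12 bases that end 99.4% of the TRAJ18 reads of the main table. No group of 3 libraries was large enough for a test of outlying samples.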

How the results depend on the processing

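Of 149 recomputed values for 11 results, 131 kept their direction and side of the threshold or, for called segments, their count. The exact tests of KO minus WT could not cross the threshold, since their smallest p was 0.1. For these only the direction could change. The clonotype share in tumor minus TDLN (0.670 points) turned to −0.0837 with all rows, −1.26 with merged variants and −0.260 without single reads. The read share of KO minus WT in TDLN (−0.333) turned to 1.46 without shared clonotypes, and unproductive rows (3.53) to −1.17 with TRAJ7 rows as deposited. The cause was not tested.

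Leaving out 1 library at a time gave 0.456 to 3.18 points for the read share in tumor minus TDLN. For KO minus WT it gave −1.31 to 1.25 in TDLN, positive without KO TDLN 3 (0.0878) or WT TDLN 3, and −4.05 to 1.09 in tumor, positive without KO tumor 1 (0.251) or WT tumor 4. For the clonotype share it gave −1.04 to 2.39 in tumor minus TDLN, negative without WT tumor 2 or KO TDLN 2 (−0.111). For KO minus WT it gave −1.25 to 1.30 in TDLN, positive without KO TDLN 2 or WT TDLN 3 (1.23), and −7.87 to −0.997 in tumor. CDR3 length stayed between −0.429 and −0.0614 and unproductive rows between 0.0664 and 5.44. No exact p fell below 0.1 in any of these. For KO minus WT none could, with 10 assignments each. Its clonotype share in tumor without WT tumor 3 had an exact permutation p of 0.1.

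DESeq2, with size factors from the positive counts, called 1 member (TRAV1) in tumor minus TDLN (adjusted p = 0.00195) and 1 in KO minus WT in TDLN (TRAV1, adjusted p = 0.0137). It gave an adjusted p to 58 segments, while edgeR tested 90. Leaving out 1 library gave 0 to 1 members in tumor minus TDLN and 0 in the other comparisons. Over all segments, edgeR called 20 in tumor minus TDLN, 12 with TMM factors, 1 with the block, and DESeq2 18. For KO minus WT edgeR called 0 in both tissues, and DESeq2 called 1 in TDLN and 5 in tumor.

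Tumor and TDLN libraries of 1 genotype that share a number had correlations of deviations of −0.265 to 0.0614 over 5 pairs. These values cannot show whether a pair comes from 1 mouse, which the labels do not state. WT TDLN 1 and WT tumor 2 share a letter but no number in the labels, and were not among these pairs. The deposited data number both of them as 1. With the replicate block the read share in tumor minus TDLN was 1.37 (exact p = 0.75), the clonotype share −1.39 (exact p = 0.5625) and the members called 0. Depth limits TRAV11, which no library held with more than 124 productive reads.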

Other observations

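Among the last 20 bases of the CDR3, the only ones compared, TRAJ18 reads differed from the commonest base most often at 1 place. At base 13 from the 3′ end of the CDR3, 2.19% of 7817 TRAJ18 reads (171) differed from the commonest base, 167 of them with T, while the next highest position had 0.243% and the median position 0.102%. In the first TRAV16-TRAJ18 form this is G39T, counted from the 5′ end of the CDR3, and it leaves the amino acids as they are. The sequence with it is TRAV16-TRAJ18: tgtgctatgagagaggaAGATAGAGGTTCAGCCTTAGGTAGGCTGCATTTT, with 101 reads in WT tumor 2 and 13 in KO TDLN 1. The share with T was 2.08% in WT tumor 2 (95% Wilson interval 1.74% to 2.48%), 1.92% in KO TDLN 1 (1.32% to 2.78%) and 3.20% in KO TDLN 3 (1.92% to 5.31%). The position was picked after its values were seen, and no test was made.

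The further deposited table of all chains holds 58 rows with TRAJ18 or TRAJ33 and 2016 reads, over 8 libraries. Of these rows, 38 carry a CDR3 that the main table lists for the same library. Its J names differ from those of the main table: in WT tumor 2 it names no TRAJ18 read, against 5775 in the main table, although the CDR3 of the first TRAV16-TRAJ18 form has 4503 reads there.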
